A study of Mus musculus with 10 samples.

Results

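The 10 genes described here, Msx1, Msx2, Pax9, Barx1, Lhx6, Lhx8, Pitx1, Runx2, Twist1 and Prrx1, encode transcription factors of the dental mesenchyme. They were chosen by name, with earlier results of these data known, and matched by their GENCODE symbols to 10 of the 18381 genes in the count table. The rule itself uses no measured value. The table comes from first lower molars of wild type C57BL/6JOlaHsd mouse embryos at embryonic day 14, kept for 6 h in hanging drops of medium. Treated teeth received insulin-like growth factor 1 (IGF1, a growth factor that signals through a receptor tyrosine kinase) at 750 ng/ml in phosphate buffered saline with bovine serum albumin. Control teeth received an equal volume of that vehicle. Each of 5 embryos, numbered 1, 2, 3, 4 and 6, gave 1 tooth to each treatment, right and left sides were balanced, and every tooth was sequenced as its own library of total RNA. The comparison asks which genes differ between the IGF1 tooth and the control tooth of the same embryo.

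A tooth forms from an epithelium that grows into mesenchyme derived from the cranial neural crest, and the tissues exchange signals of the FGF, BMP, Wnt and Hedgehog families. At the cap stage the epithelium folds around the condensed mesenchyme, the future dental papilla, under the influence of a signalling centre, the enamel knot. The factors described here are expressed in jaw and dental mesenchyme in response to epithelial signals, and in the mouse the loss of Msx1, Pax9 or Runx2 arrests molar development.

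The whole tooth was sampled, so epithelium, mesenchyme and attached tissue were measured together. In these bulk libraries, fewer cells of a type and less RNA per cell cannot be told apart. Library totals were 2845773 to 8403151 counts for control teeth and 3456634 to 8763113 counts for IGF1 teeth, and both teeth of embryo 1 had the lowest totals of their group. The mesenchymal markers Pdgfra and Col1a1 and the epithelial markers Epcam and Krt14 were present in every tooth, with control means of 969, 967, 113 and 433 CPM (counts scaled to a common library size after TMM normalization, as the unit is used throughout). The teeth of embryos 2 and 3 stood apart in a list of 17 genes of the response to low oxygen, of which 15 rose with IGF1. Of all genes tested, 6.72% rose. The median log2 ratio of that list was 2.92 in embryo 2 and 2.47 in embryo 3, against 0.54, 0.99 and 0.90 in embryos 1, 4 and 6, and its part in the results for the transcription factors was not tested. Values without embryos 2 and 3 are therefore given where a call changed or a log2 fold change moved by more than 1.5 times.

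No gene among the 10 passed the test between IGF1 and control teeth (edgeR's quasi-likelihood test with embryo as a block, Benjamini-Hochberg adjusted p under 0.05). Of the 14504 genes tested, 11.5% passed it. Genes called higher in the IGF1 teeth made up 6.72% of all genes tested, and genes called lower 4.76%. At an unadjusted p under 0.05, 4 of the 10 stood out, Pax9, Barx1, Lhx6 and Runx2, each with a lower estimate, against 26.5% of all genes tested. That count was 1 without the block or without embryo 6, 2 without embryo 4 and 0 with the libraries scaled on 16 mesenchymal marker genes. The 26.5% is for the main fit. Adjusted calls over all genes also fell, from 1666 to 887 without the block and 994 without embryo 6. They were 986 without embryo 4 and 1282 with the marker scaling. DESeq2's Wald test and limma-voom each called 1 of the 10 factors, Barx1. A p that misses the threshold does not show that the levels were equal, and the intervals below give the sizes that the data allow.

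The estimates lay mostly on one side. Of the 10 log2 fold changes, 9 were below 0, and 7 with the marker scaling, which turned Pitx1 and Prrx1 and moved the median of all genes to 0.10. Among all genes tested, 50.6% were below 0. With the marker scaling, the log2 fold changes of Msx1, Pax9, Barx1 and Lhx6 were -0.03, -0.13, -0.18 and -0.09. Those of Lhx8, Runx2, Twist1 and Msx2 were then -0.03, -0.10, -0.003 and 0.20. The median log2 fold change of the 10 factors was -0.13, beside 0.00 for all genes tested (-0.0038), and it was -0.20 without embryos 2 and 3 and -0.03 with the marker scaling, beside the 0.10 for all genes. Pax9, Barx1 and Lhx6 were lower in the IGF1 tooth of all 5 embryos, as were 11.2% of all genes. The ranges of control and IGF1 teeth overlapped for each of the 10, and among all genes tested 7.25% had ranges that did not overlap.

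**Figure D1:**
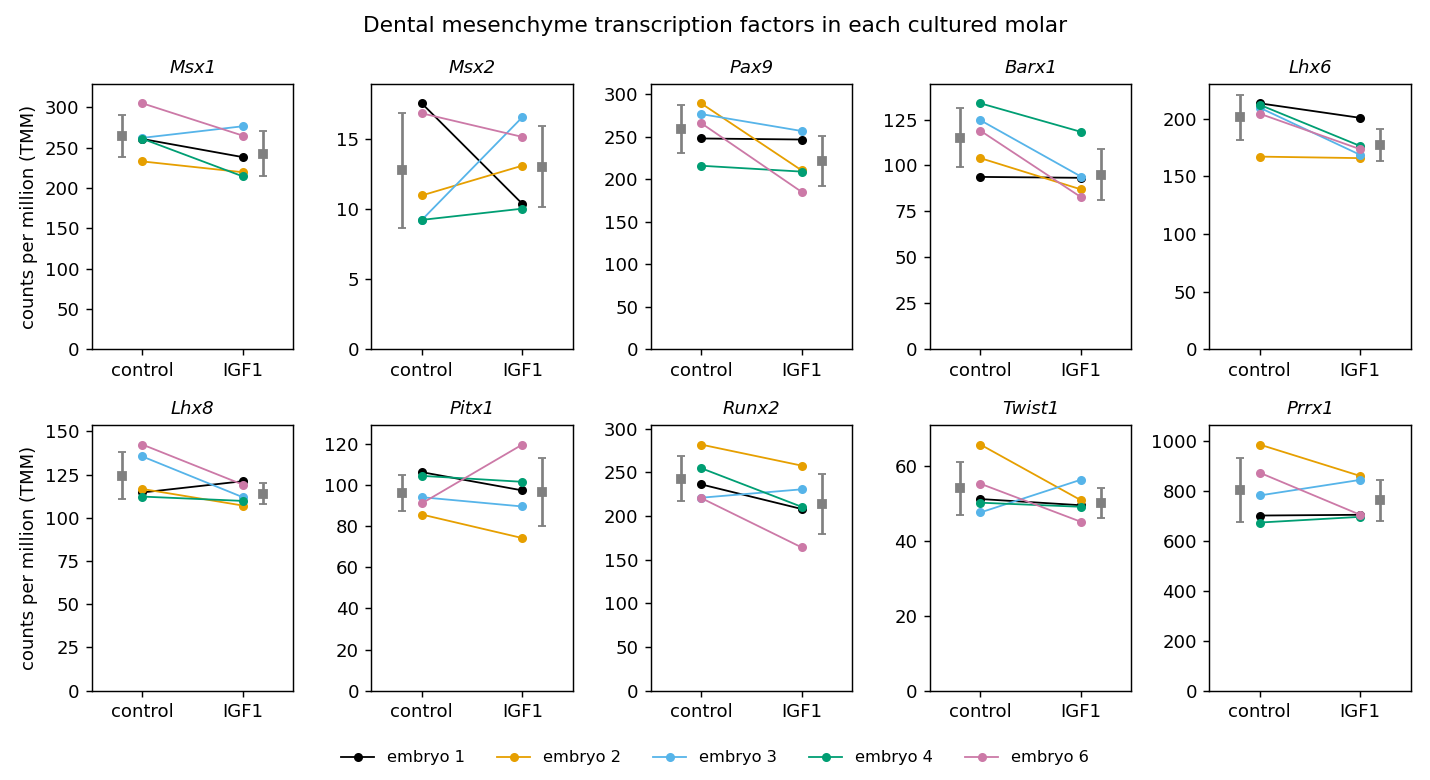
TMM-normalized CPM of each of the 10 factors (vertical axes, linear from 0) in control and IGF1 teeth, with a line joining the teeth of each embryo and grey squares with bars for the mean and SD of 5 teeth. The lines of Pax9, Barx1 and Lhx6 run downwards in all 5 embryos, and in every panel the groups overlap.

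Barx1 is a homeobox gene of the proximal jaw mesenchyme, where molars form, and it lay on chr13:48662998-48666507 (GRCm38, plus strand) with 4 exons. Its normalized level was 93.8, 104, 125, 134 and 119 CPM in the control teeth of embryos 1, 2, 3, 4 and 6, and 93.3, 87.0, 94.0, 118 and 82.8 CPM in their IGF1 teeth. The IGF1 tooth was the lower one in every embryo, by very little in embryo 1, and the IGF1 teeth of embryos 3 and 4 lay inside the control range. The mean was 115 ± 16.1 CPM in control and 95.1 ± 13.8 CPM in IGF1 teeth (SD, n = 5). The log2 fold change was -0.28 ± 0.08 (SE; 95% interval -0.46 to -0.10), with an unadjusted p of 0.00594 and an adjusted p of 0.0510 by edgeR's quasi-likelihood test. Its unadjusted p lay just above that of the last gene called, 0.00573. With the other settings tried, the adjusted p of Barx1 ran from 0.0321 to 0.341, and 5 of 13 settings called it lower. It was called without embryo 1 (adjusted p = 0.0422), and not without embryos 2 and 3 (log2 fold change -0.25, adjusted p = 0.142).

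Pax9, a paired box gene required for the mesenchyme to pass the bud stage, lay on chr12:56691767-56712822 (plus strand). The control teeth of embryos 1, 2, 3, 4 and 6 held 248, 289, 276, 216 and 266 CPM, and the IGF1 teeth 247, 210, 257, 209 and 185 CPM. All 5 IGF1 teeth were below their partners, but only those of embryos 2 and 6 by a wide margin, with log2 ratios of -0.46 and -0.52. For Pax9 the log2 fold change was -0.23 (95% interval -0.42 to -0.04, adjusted p = 0.119 by edgeR's quasi-likelihood test). A stretch of 189 bases of the Pax9 exons is shared with Slc25a21 on the opposite strand, and that gene held 123 counts in all libraries together, against 15950 for Pax9. Exons of Lhx6, Pitx1 and Runx2 also overlap non-coding genes of the annotation, by 104 bases with Gm27953, by 165 and 108 bases with Gm47071 and Gm28760, and by 519 bases with Runx2os1. How reads of shared stretches were assigned is not given in the sources used here, so the counts of these 4 factors are uncertain to that extent.

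Msx1 and Msx2 are homeobox genes induced by BMP signals, and Msx1 in turn is needed for Bmp4 expression in the dental mesenchyme. Msx1, on chr5:37820485-37824583 (minus strand), had 261, 233, 262, 261 and 305 CPM in the control teeth of embryos 1, 2, 3, 4 and 6, and 238, 220, 277, 214 and 265 CPM in the IGF1 teeth. The IGF1 tooth was the lower one in each embryo but embryo 3, and most values of the groups overlapped. Its log2 fold change was -0.12 (95% interval -0.28 to 0.03, adjusted p = 0.285 by edgeR's quasi-likelihood test). Without embryos 2 and 3 it was -0.21 (adjusted p = 0.0930).

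Msx2, on chr13:53466884-53473074 (minus strand), was the least abundant and the most variable of the 10. It had 17.5, 10.96, 9.21, 9.22 and 16.8 CPM in the control teeth and 10.4, 13.1, 16.5, 10.02 and 15.1 CPM in the IGF1 teeth of embryos 1, 2, 3, 4 and 6. The embryos disagreed in direction, with log2 ratios from -0.74 in embryo 1 to 0.82 in embryo 3, and an SD of 0.57 over the 5 embryos. Counting error alone would give an SD of 0.20 to 0.31 for these ratios, since Msx2 had 36 to 144 counts in a tooth. Its log2 fold change was 0.11 (95% interval -0.32 to 0.54), and the sign turned without embryo 3 (-0.10) and without embryos 2 and 3 (-0.23). It was 0.27, 0.07 and 0.17 without embryo 1, 2 or 6.

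The LIM homeobox genes Lhx6 and Lhx8 are expressed in oral mesenchyme under FGF signals from the epithelium and act in part redundantly in molar formation. Lhx6, on chr2:36081953-36105408 (minus strand), had 213, 167, 210, 212 and 204 CPM in the control teeth and 201, 166, 169, 176 and 174 CPM in the IGF1 teeth of embryos 1, 2, 3, 4 and 6. The control tooth of embryo 2 lay far below the other controls and next to the IGF1 teeth, while the IGF1 tooth of embryo 1 lay near the controls. On average Lhx6 had a log2 fold change of -0.18 (95% interval -0.34 to -0.03, adjusted p = 0.1099 by edgeR's quasi-likelihood test), lower in 5 of 5 embryos.

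Lhx8, on chr3:154306294-154330659 (minus strand), had 115, 117, 136, 112 and 142 CPM in the control teeth and 121, 107, 112, 110 and 119 CPM in the IGF1 teeth of embryos 1, 2, 3, 4 and 6. The IGF1 teeth were lower in every embryo but embryo 1, and the high controls of embryos 3 and 6 made most of the distance between the groups. Over the 5 embryos Lhx8 had a log2 fold change of -0.13 (95% interval -0.29 to 0.04, adjusted p = 0.310 by edgeR's quasi-likelihood test), and -0.08 without embryos 2 and 3.

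Pitx1, a homeobox gene of the hindlimb and the lower jaw, lay on chr13:55825051-55836192 (minus strand). Its control teeth held 106, 85.6, 94.0, 104 and 91.0 CPM and its IGF1 teeth 97.3, 74.2, 89.5, 102 and 120 CPM in embryos 1, 2, 3, 4 and 6. In 4 embryos the IGF1 tooth was slightly lower, and in embryo 6 it was the highest of all 10 teeth, with a log2 ratio of 0.39. The log2 fold change was -0.01 (95% interval -0.21 to 0.19), and it was -0.11 when embryo 6 was left out. The sign of Pitx1 was above 0 without embryo 1, 2, 3 or 4, and also without embryos 2 and 3, without the block or with mesenchymal marker scaling.

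Runx2 is required for bone formation as well as for the molar to leave the bud stage, and it lay on chr17:44495987-44814797 (minus strand). It had 236, 282, 221, 255 and 221 CPM in the control teeth and 208, 258, 231, 211 and 164 CPM in the IGF1 teeth of embryos 1, 2, 3, 4 and 6. The teeth of embryo 2 were the highest in both groups, the IGF1 tooth of embryo 6 was the lowest, and embryo 3 alone had the higher value with IGF1. The log2 fold change was -0.19 (95% interval -0.36 to -0.02, adjusted p = 0.140 by edgeR's quasi-likelihood test). Over the other settings the adjusted p ran from 0.0278 to 0.681. Runx2 was called lower without embryo 3 (log2 fold change -0.26, adjusted p = 0.0415) and without embryos 2 and 3 (-0.30, adjusted p = 0.0278).

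Bone and cartilage genes varied widely between the teeth in which Runx2 was measured. Ibsp, which encodes bone sialoprotein, ran from 5.91 to 178 CPM in control teeth and from 0.999 to 495 CPM in IGF1 teeth, with the highest value of each group in embryo 2. Sp7, an osteoblast factor downstream of Runx2, also peaked in embryo 2, at 68.2 CPM in the control and 88.1 CPM in the IGF1 tooth, and the cartilage collagen Col2a1 stayed between 12.9 and 42.1 CPM. The sum of the 11 bone and cartilage markers in the table ran from 203 to 1042 CPM in control and from 189 to 1398 CPM in IGF1 teeth. Between the teeth of embryo 3 the sum differed by a log2 ratio of -1.18, and in embryo 2 by 0.42, and the part of these tissues in the Runx2 values was not tested.

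Twist1, a basic helix-loop-helix factor of cranial mesenchyme, lay on chr12:33957671-33959829 (plus strand). It held 51.2, 65.7, 47.6, 50.2 and 55.3 CPM in the control teeth and 49.5, 50.9, 56.4, 49.1 and 45.1 CPM in the IGF1 teeth of embryos 1, 2, 3, 4 and 6. Most teeth lay close together, the control tooth of embryo 2 was the highest, and embryo 3 went the other way. For Twist1 the log2 fold change was -0.10 (95% interval -0.32 to 0.11, adjusted p = 0.560 by edgeR's quasi-likelihood test). Single embryos moved this estimate, to -0.03 without embryo 2, -0.20 without embryo 3 and -0.06 without embryo 6.

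Prrx1, a paired-related homeobox gene of craniofacial and limb mesenchyme, lay on chr1:163245119-163313710 (minus strand) and had the most counts of the 10, 2045 to 7368 in a tooth. Its control teeth held 703, 987, 783, 674 and 874 CPM and its IGF1 teeth 706, 861, 846, 697 and 705 CPM in embryos 1, 2, 3, 4 and 6. The IGF1 tooth was the lower one only in embryos 2 and 6, so the embryos were divided. The log2 fold change was -0.07 (95% interval -0.24 to 0.10, adjusted p = 0.627 by edgeR's quasi-likelihood test), and 0.03 with mesenchymal marker scaling. It was -0.04 without embryo 2, -0.12 without embryo 3 and -0.01 without embryo 6.

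**Figure D2:**
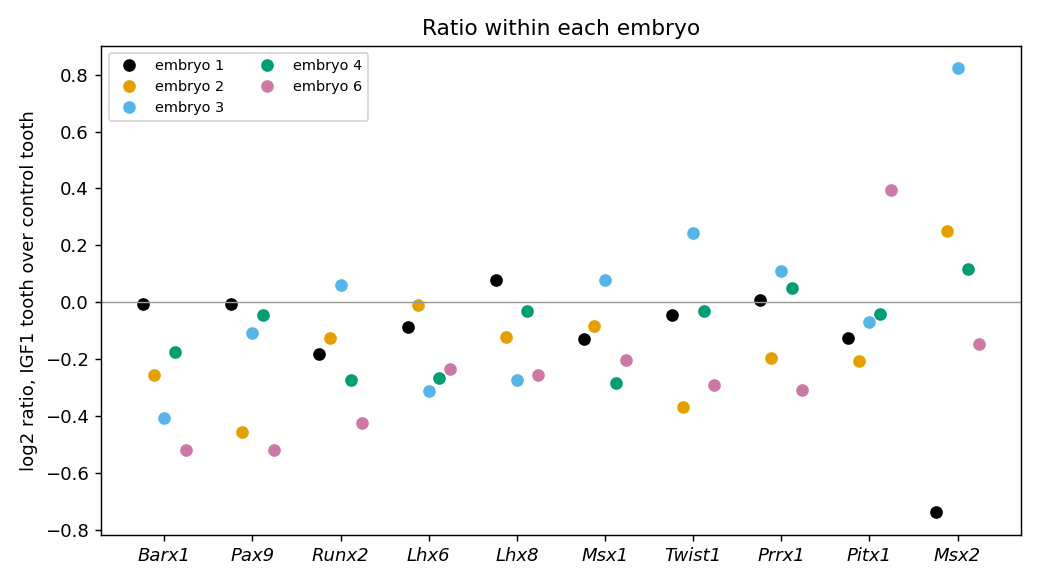
Log2 ratio of the IGF1 tooth over the control tooth within each embryo (vertical axis, with a prior count of 2) for the 10 factors, ordered by their log2 fold change. Barx1, Pax9 and Lhx6 have all 5 points below 0, while the points of Msx2 run from -0.74 to 0.82.

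The embryos differed in how far the set as a whole lay from its controls. The median log2 ratio of the 10 factors was -0.27 in embryo 6 and -0.16 in embryo 2, with 9 factors lower in each. It was -0.07, -0.01 and -0.04 in embryos 1, 3 and 4, with 8, 5 and 8 factors lower. The corresponding median of all genes lay between -0.008 and 0.016 in each embryo. How the low oxygen response of embryos 2 and 3 bears on these medians was not tested.

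The precision of the measurement can be read from the spread over embryos. The SD of the log2 ratio over the 5 embryos had a median of 0.19 among the factors and of 0.25 among all genes tested. Among the 6919 genes with a mean log2 CPM above 5, which include 9 of the factors, the median SD was 0.18 and 15.5% were called. Among all called genes the smallest absolute log2 fold change was 0.21 and the median was 0.49, and 194 called genes lay under 0.3. Apart from Msx2, the 95% intervals of the factors reached down to -0.46, for Barx1, and up to 0.19, for Pitx1.

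Levels were compared between the factors after division by the total exon length of each gene. Per kilobase of exon, control teeth had 85.4 ± 8.33 CPM of Msx1, 82.2 ± 11.5 CPM of Barx1 and 72.7 ± 11.6 CPM of Prrx1 (SD, n = 5), and the ranges of neighbours in this order overlapped. Pax9 followed with 51.2 ± 5.64 CPM per kilobase, and its range lay wholly below that of Prrx1. From Pax9 the levels per kilobase descended through Lhx8 (49.1), Lhx6 (41.9), Pitx1 (36.2) and Twist1 (33.2) to Runx2 (27.5), and each range overlapped the next. Msx2 was far lower at 3.89 ± 1.25 CPM per kilobase, 7.08-fold under Runx2 with no overlap. By this measure 9 factors lay between percentiles 92.1 and 98.2 of all genes in the table, and Msx2 at percentile 46.1.

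**Figure D3:**
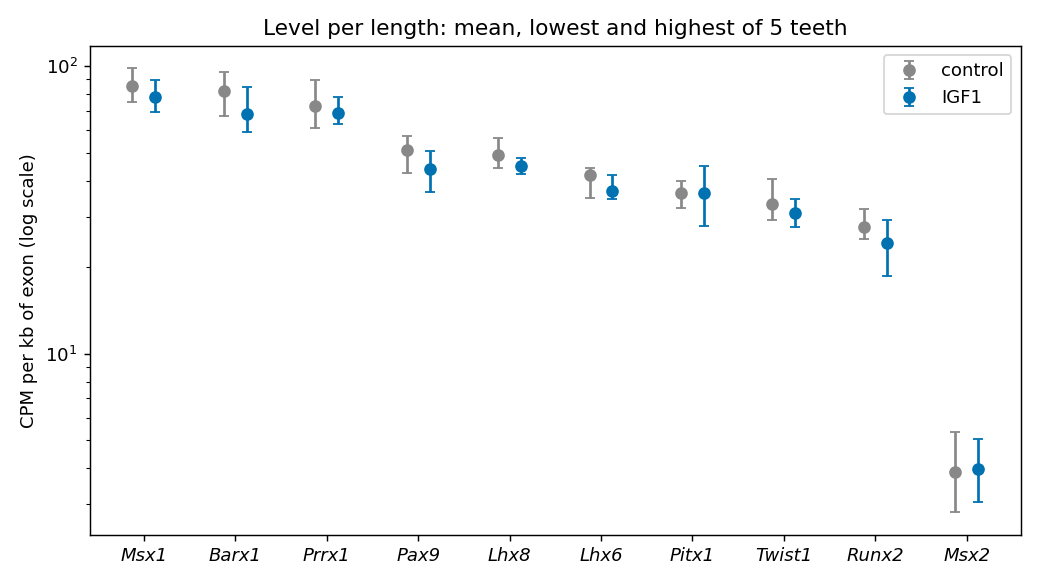
Level of each factor per kilobase of exon (vertical axis, CPM per kb on a log scale) in control and IGF1 teeth. Points are means and bars run from the lowest to the highest of 5 teeth, and Msx2 lies below the other 9 factors in both groups.

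Ratios between related factors within a tooth differed little between the groups compared with their spread. Msx1 exceeded Msx2 by 23.5 ± 6.43-fold per kilobase in control teeth and by 20.2 ± 3.07-fold in IGF1 teeth (SD, n = 5). The level of Lhx6 per kilobase was 0.860 ± 0.119 of that of Lhx8 in control teeth and 0.819 ± 0.0417 in IGF1 teeth.

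Promoter sequences were taken from RefSeq on GRCm38.p6, as windows of 250 bases before and 50 bases after a start. There were 11 windows for 9 of the factors, all but Pitx1. The sequence upstream of 3 genes is shown, Barx1 with the estimate farthest from 0 and Twist1 and Prrx1 with estimates nearer to it. Their 95% intervals overlapped, and none of the 3 passed the test in the main fit. They were also picked because the windows of Twist1 and Prrx1 each hold a searched motif, set in capitals. A link between motifs and fold changes was not tested. Bases that GENCODE places in an exon were left out.
Barx1, chr13:48662786-48662997, plus strand: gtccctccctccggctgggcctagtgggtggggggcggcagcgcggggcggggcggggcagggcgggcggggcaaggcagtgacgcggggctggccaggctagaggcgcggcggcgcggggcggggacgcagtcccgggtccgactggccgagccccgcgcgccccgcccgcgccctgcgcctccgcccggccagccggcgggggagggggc
Twist1, chr12:33957421-33957670, plus strand: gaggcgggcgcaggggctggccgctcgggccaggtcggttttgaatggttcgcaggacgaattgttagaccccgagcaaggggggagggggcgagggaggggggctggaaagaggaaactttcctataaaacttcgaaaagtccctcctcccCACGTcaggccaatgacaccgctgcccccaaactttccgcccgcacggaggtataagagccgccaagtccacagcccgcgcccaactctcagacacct
Prrx1, chr1:163313711-163313900, minus strand: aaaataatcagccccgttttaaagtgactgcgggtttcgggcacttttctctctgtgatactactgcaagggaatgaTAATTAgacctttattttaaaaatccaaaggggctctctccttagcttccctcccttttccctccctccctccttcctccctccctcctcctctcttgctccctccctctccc

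Of the motifs searched on both strands, ACGTG, the core of the hypoxia response element, occurred 1 time among the windows, as CACGT in that of Twist1, while 19.6% of all 32851 windows in the table hold it. The homeodomain core TAATTA occurred 1 time each in the windows of Prrx1 and Msx2 (5.3% of all windows), and TAATTG in 1 window of Lhx6 (8.0%). That Lhx6 window and the windows of Msx2 and Pax9 lie wholly inside the annotated genes. The Runx core ACCACA occurred 3 times in the window of Runx2 itself (16.8% of all windows), within transcribed sequence. The FoxO motif GTAAACA was in none of the 11 windows, beside 3.6% of all. The E-box CANNTG was in the windows of Msx1, Msx2, Pax9 and Runx2 and in 1 window of Lhx6 (72.3% of all). The Barx1 window held none of these motifs, and with 84.7% G and C and 50 CpG dinucleotides it lay far from the median window, which has 52.7% G and C. These matches describe letters only.

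A list of 32 further transcription factors of craniofacial mesenchyme gave 28 tested genes, of which 5 fell, 1 rose and 22 did not pass the test. Of all genes tested, 11.5% passed, 4.76% as lower and 6.72% as higher. The median log2 fold change of the list was -0.17, beside 0.00 (-0.0038) for all genes. Dlx2, a homeobox gene that patterns the jaw, fell most, from 86.9, 63.0, 64.7, 56.6 and 85.1 CPM in the control teeth of embryos 1, 2, 3, 4 and 6 to 47.8, 34.2, 37.4, 36.6 and 55.8 CPM in the IGF1 teeth. The groups of Dlx2 did not overlap, and its log2 fold change was -0.75 (95% interval -0.92 to -0.58, adjusted p = 0.000199 by edgeR's quasi-likelihood test). Its genomic neighbour Dlx1 fell by 0.29 on the log2 scale (adjusted p = 0.0258), also without overlap.

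Runx1, a relative of Runx2, fell from 129 ± 17.8 to 96.9 ± 12.3 CPM (SD, n = 5), a log2 fold change of -0.41 with adjusted p = 0.0207 by edgeR's quasi-likelihood test. The zinc finger genes Snai2 and Zeb2, regulators of neural crest and mesenchymal cells, fell by 0.34 and 0.25 on the log2 scale (adjusted p = 0.0193 and 0.0367). Sox9, a factor of cartilage and of some epithelial cells, rose from 33.3 ± 7.23 to 44.3 ± 7.68 CPM (log2 fold change 0.43, adjusted p = 0.0164), and it was higher in the IGF1 tooth of all 5 embryos. Dlx2 kept its call in all 13 other settings. Sox9 lost it without embryo 6, and Runx1 without embryo 1, 4 or 6. Snai2 lost its call without embryo 1, 4 or 6, Zeb2 without embryo 1, 2, 4 or 6, and Dlx1 without embryo 1, 2, 4 or 6. Without embryos 2 and 3 the calls of Sox9 and Dlx1 were lost, and without the block those of Snai2, Zeb2 and Sox9.

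**Figure D4:**
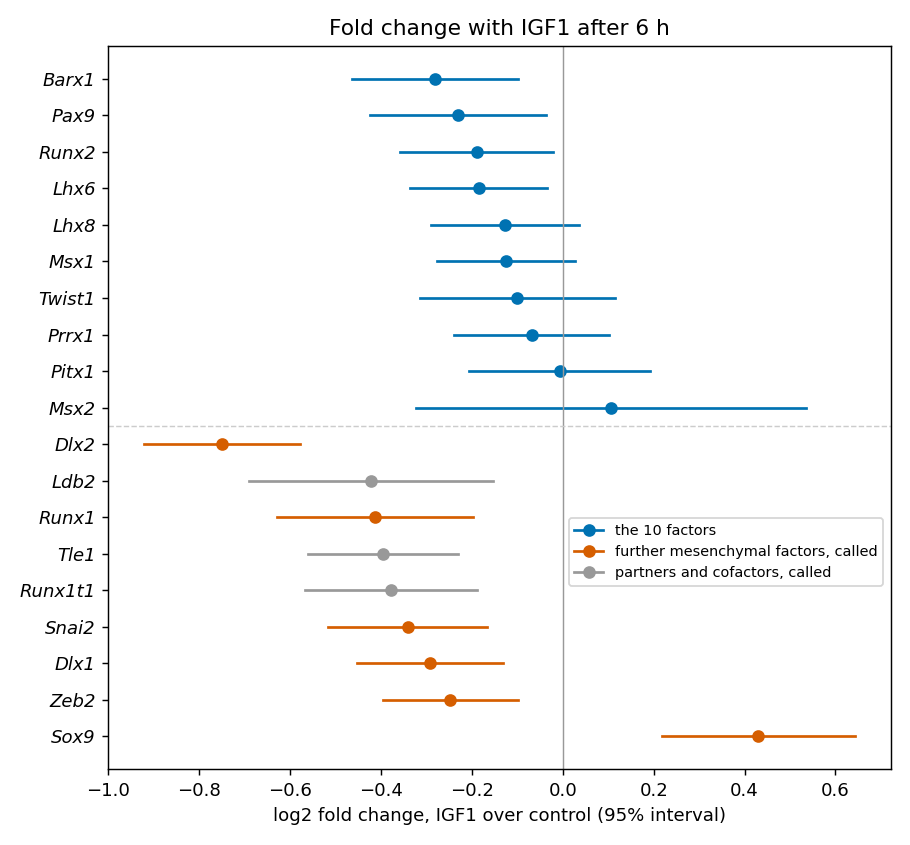
Log2 fold change of IGF1 over control with its 95% interval (horizontal axis) for the 10 factors, above the dashed line, and for the called genes of the lists of further mesenchymal factors and of partners and cofactors. The intervals of Barx1, Pax9, Runx2 and Lhx6 lie below 0 although none of the 10 passed the adjusted test, and Dlx2 lies farthest from 0.

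A second list held 20 genes for partners and cofactors of these factors or of related proteins. Of these, 3 fell, none rose and 17 did not pass the test. Of all genes tested, 11.5% passed, 4.76% as lower and 6.72% as higher. The median log2 fold change of the list was -0.13, beside 0.00 (-0.0038) for all genes. Tle1, a Groucho corepressor that Runx and homeodomain proteins recruit, fell from 192 ± 9.27 to 147 ± 18.1 CPM without overlap (log2 fold change -0.40, adjusted p = 0.00691 by edgeR's quasi-likelihood test). Runx1t1, a corepressor known from a fusion with Runx1 in leukaemia, fell by 0.38 on the log2 scale (adjusted p = 0.0173), and Ldb2, which bridges LIM homeodomain proteins, fell by 0.42 (adjusted p = 0.0476). Runx1t1 lost its call without embryo 2 and without embryos 2 and 3, and Ldb2 lost it without embryo 2, 3, 4 or 6, without embryos 2 and 3 (log2 fold change -0.20) and without the block. With mesenchymal marker scaling, Dlx1, Runx1, Snai2 and Zeb2 and all 3 of these partners lost their calls. Cbfb, the shared partner of all Runx proteins, had a log2 fold change of -0.04 (95% interval -0.23 to 0.14; 0.05 with mesenchymal marker scaling), and Ldb1 one of -0.18 (-0.32 to -0.04, adjusted p = 0.0995).

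Among 12 tested epithelial signals that act on the mesenchyme, 2 fell, none rose and 10 did not pass the test, with a median log2 fold change of -0.41. Among all genes tested, 4.76% fell and 6.72% rose, and the median was 0.00 (-0.0038). Shh, the Hedgehog ligand of the enamel knot, fell from 44.3, 27.8, 28.0, 25.8 and 50.9 CPM in the control teeth to 12.7, 7.49, 13.5, 10.5 and 30.0 CPM in the IGF1 teeth of embryos 1, 2, 3, 4 and 6. The IGF1 tooth of embryo 6 alone reached the control range, and the log2 fold change was -1.31 (adjusted p = 0.000644 by edgeR's quasi-likelihood test). Bmp2 fell by 0.56 on the log2 scale (adjusted p = 0.0367), a call that was lost without embryo 2, 3, 4 or 6, without embryos 2 and 3, and without the block.

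A list of 19 genes that the dental mesenchyme expresses or that respond in it had all its estimates below 0, and 7 of them fell while none rose. Of all genes tested, 50.6% had estimates below 0, and 4.76% were called lower and 6.72% higher. The median of the list was -0.27 on the log2 scale, beside 0.00 (-0.0038) for all genes. Several genes of the list are also expressed in the epithelium. Fgf3, an FGF that the papilla sends back to the epithelium, fell from 17.1 ± 6.39 to 7.65 ± 8.86 CPM (log2 fold change -1.55, adjusted p = 0.0116 by edgeR's quasi-likelihood test), with the IGF1 tooth of embryo 6 at 23.3 CPM among the controls. Ret, the receptor of GDNF, fell by 1.40 on the log2 scale from 8.92 ± 3.59 CPM, without overlap of the groups (adjusted p = 0.00320). The Wnt effector Lef1 fell by 0.54 on that scale and the Wnt pathway gene Dkk3 by 0.49, both without overlap (adjusted p = 0.00219 and 0.00886).

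Inhba, which encodes the activin A subunit of the papilla, fell from 167, 178, 161, 157 and 185 CPM in the control teeth to 128, 123, 142, 102 and 145 CPM in the IGF1 teeth of embryos 1, 2, 3, 4 and 6, with no overlap (log2 fold change -0.41, adjusted p = 0.00601 by edgeR's quasi-likelihood test). The activin antagonist Fst fell by 0.44 on the log2 scale (adjusted p = 0.0365), a call lost without embryo 1, 2, 4 or 6 and without the block. Fgf3 too was not called without the block, and its log2 fold change was -0.93 without embryos 2 and 3 (adjusted p = 0.0419). Ptch1, the Hedgehog receptor and target, also fell (log2 fold change -0.41, adjusted p = 0.0130), except that the call was lost without embryo 4. With mesenchymal marker scaling, Bmp2, Inhba, Fst, Dkk3 and Ptch1 were not called, and Shh, Fgf3, Ret and Lef1 were. Bmp4 and Fgf10, singled out after their values were seen because both act in the mesenchyme beside Msx1 and Pax9, had log2 fold changes of -0.05 (95% interval -0.24 to 0.13; 0.05 with mesenchymal marker scaling) and -0.27 (-0.49 to -0.06, adjusted p = 0.0970). Over the embryos left out, Bmp4 ran from -0.0875 (without embryo 6) to -0.0012 (without embryo 4). All 5 Fgf10 values with IGF1 lay below the controls, although the gene did not pass the test.

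Markers of the tissues in the tooth were summed to set beside these values. Calls among these markers stand beside 4.76% lower and 6.72% higher among all genes tested. The 16 mesenchymal markers summed to 10070 to 12740 CPM in control and 8997 to 12290 CPM in IGF1 teeth, with 1 higher and 4 lower among them. These same 16 genes set the marker scaling. The log2 ratio of their sum was 0.026, 0.091, -0.354, -0.14 and -0.095 in embryos 1, 2, 3, 4 and 6. Pdgfra, a receptor of mesenchymal cells, fell from 969 ± 96.0 to 672 ± 80.9 CPM (log2 fold change -0.53, adjusted p = 0.00183 by edgeR's quasi-likelihood test), whereas Col1a1 had 967 ± 241 and 1090 ± 375.5 CPM. The 16 epithelial markers summed to 3012 to 4196 CPM in control and 3353 to 4493 CPM in IGF1 teeth, with 1 of 15 tested higher and 1 lower. Of the bone and cartilage markers Sox9, described above, was called. Endothelial markers (389 to 447 CPM in control, 309 to 406 CPM with IGF1) were lower for 2 of 8, macrophage markers for 1 of 7 and Schwann cell markers for 1 of 4 tested, where Sox10 and Foxd3 were near 0. Muscle markers did not exceed 49.0 CPM in sum, and 5 of 6 erythroid markers fell. The part of these tissues in the values of the 10 factors was not tested.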

How the data were processed

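RNA was sequenced from 5 IGF1 and 5 control molars. The authors deposited estimated counts per gene, and all values in the table were whole numbers, so rounding changed none. The submitters' processing notes name FastQC 0.11.8, Trimmomatic 0.39, Salmon 0.99.0, DESeq2 and GRCm38, and the transcript set, the use of strand and the filter on low counts are not given in the sources used here. Each gene in the table had at least 10 counts over all samples. Of 18381 identifiers, 18287 matched GENCODE mouse release 21 and 94 did not.

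Counts were tested in R 4.3.3 with edgeR 4.0.16 (quasi-likelihood test, TMM normalization, filterByExpr, embryo as a block), and p-values were adjusted over all 14504 genes tested by the Benjamini-Hochberg procedure with a threshold of 0.05. The labels take both teeth of a number from 1 embryo. Both teeth of an embryo deviated from their group means with correlations of 0.319, 0.208, -0.0389, 0.170 and 0.313 for embryos 1, 2, 3, 4 and 6 and a median of -0.0463 for teeth of different embryos. Teeth within each group were not repeats of a library (chi-square over degrees of freedom, 4.68 to 19.4) and each entered as a sample of its own. CPM values are TMM-normalized. Exon lengths are unions of GENCODE exons. Ratios per embryo used a prior count of 2. The procedure was tested on simulated data, where the median fitted fold changes lay close to those put in, part of the changed genes was missed, more of the smaller changes, and the share of false calls was above the threshold.

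The 10 factors and all gene lists were chosen with earlier results of these data known. All 10 factors are named. From the lists of further factors and of partners, every gene past the threshold is named, and from those of signals and outputs up to 6 with the largest change, besides preset marker genes. Names outside this rule (Ptch1, Cbfb, Ldb1, Bmp4, Fgf10, Sox10, Foxd3 and the genes near the factors) were added after their values were seen, and some marker genes are not reported here. Alternatives were no block, DESeq2 1.42.0 with its size factors or Wald test, limma-voom (limma 3.58.1), other count filters, scaling on 16 mesenchymal markers, and leaving out each embryo.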

Additional observations from a re-analysis of the deposited data

Results flagged for a closer look

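One tooth stood far from the rest of its group. Lhx6 measured 167 CPM in the control tooth of embryo 2, against 204 to 213 CPM in the other 4 control teeth, and the gap to the nearest of them took 0.805 of the range of the group, above the critical value of 0.71 of Dixon's test for 5 samples. Among the 20 groups examined (10 factors in control and IGF1 teeth) this was the only 1, and chance gives about 1 in 20. In the IGF1 tooth of that embryo Lhx6 was at 166 CPM, the lowest of the IGF1 teeth.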

How the results depend on the processing

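Paired by embryo, 1666 genes passed, and 887 without the replicate block. The count ran from 986 to 1602 when each embryo was left out in turn (986 without embryo 4, 994 without embryo 6). Of the 10 factors 0 passed, and 1 did with DESeq2's size factors, with DESeq2's Wald test, with limma-voom or with 10 counts required in every sample, each time Barx1. The count of factors ran from 0 to 1 over the embryos left out, with Barx1 without embryo 1 and Runx2 without embryo 3. Without embryos 2 and 3, a setting chosen after seeing the data, 1 factor passed, Runx2. The log2 fold change of Pitx1 reversed to 0.0042 without the replicate block, to 0.0892 with mesenchymal marker scaling and to 0.0835 without embryos 2 and 3, and ran from -0.1139 to 0.0432 over the embryos left out. That of Prrx1 reversed to 0.0259 with marker scaling, and that of Msx2 to -0.2273 without embryos 2 and 3, with values from -0.1008 to 0.2691 over the embryos left out. Of the 130 alternative values of the factors, 113 kept direction and side of the threshold, 7 crossed it and 10 reversed. Of 364 such values of 28 other genes named with a fold change, 79 lost the call and 4 reversed. These were Cbfb and Bmp4 with marker scaling (0.0527 and 0.0502) and Cbfb over the embryos left out (-0.1175 to 0.0125). Marker scaling, which moved the median of all genes to 0.0959, gave 1063 higher and 219 lower genes (17.1% lower) in place of 975 and 691 (41.5%), and ended the calls of Dlx1, Snai2, Zeb2, Runx1, Runx1t1, Tle1, Ldb2, Bmp2, Inhba, Fst, Dkk3, Ptch1, Stk32b, Zbtb49 and Ptpdc1. DESeq2's Wald test ended those of Dlx1, Bmp2, Stk32b and Ptpdc1, limma-voom that of Stk32b, and testing all genes without a filter those of Ldb2 and Stk32b. The cause was not tested. Msx2, with 36 to 144 counts in a tooth, was the factor most limited by depth.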

Other observations

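Genes near the 10 factors were described in the same comparison. The position of a gene was taken as its lower coordinate, which is where transcription ends for a gene on the minus strand. Within 500 kb on either side of that coordinate of the factors lie 84 protein coding genes. Of these, 56 were tested and 5 passed (8.93%, beside 11.5% of all genes). The genes named here were chosen after their values were seen. Near Msx1, the kinase gene Stk32b and the zinc finger gene Zbtb49 fell by 0.41 and 0.52 on the log2 scale (adjusted p = 0.0479 and 0.0232 by edgeR's quasi-likelihood test), and near Barx1 the phosphatase gene Ptpdc1 fell by 0.31 (adjusted p = 0.0344). Near Pitx1, Lman2 and Tmed9, which act in transport between the endoplasmic reticulum and the Golgi apparatus, rose by 0.35 and 0.45 on the log2 scale (adjusted p = 0.00886 and 0.00373). The calls of Lman2 and Tmed9 held in all 13 other settings. That of Stk32b was lost without embryo 1, 3, 4 or 6, that of Zbtb49 without embryo 1, 2 or 6, and that of Ptpdc1 without embryo 1, 2, 3 or 6, and all 3 were lost without the block or with mesenchymal marker scaling. Without embryos 2 and 3, Stk32b had a log2 fold change of -0.62, and Zbtb49 and Ptpdc1 were not called. No tested neighbour of the other 7 factors passed. Msx2, Pitx1 and Barx1 lie on chromosome 13. Their lower coordinates are 2.36 Mb apart for Msx2 and Pitx1 and 4.80 Mb apart for Msx2 and Barx1.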
